A study of Mus musculus with 8 samples.

Results

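Gpnmb, Spp1, Trem2, Fabp5, Lpl, Cd9, Cd63, Apoe, Lgals3 and Plin2 are 10 genes expressed by lipid-associated macrophages. They were taken by name, as 10 of the 15994 rows of the MLL-AF9 table and 10 of the 55421 rows of the AE9a table, and each name has 1 row in either table. The libraries are cultured mouse bone marrow stromal cells (BMSC), adherent cells cultured from the marrow, taken 6 weeks after transplantation of acute myeloid leukaemia. The groups are Id1-/- and Id1+/+ cultures from mice with MLL-AF9 leukaemia (2 libraries each), and Id1-/- and Id1+/+ cultures from mice with AE9a (AML1-ETO9a) leukaemia (1 usable library each). MLL-AF9 is a fusion of KMT2A with MLLT3, and AE9a a truncated fusion of RUNX1 with RUNX1T1. All mice therefore carried a leukaemia, and Id1-/- describes the genotype of the mice from which the stroma was grown. Id1 encodes a helix-loop-helix protein without a DNA-binding region, which ties up the E proteins that other basic helix-loop-helix factors need as partners. The design asks what Id1 does for leukaemia cells from the surrounding tissue.

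Lipid-associated macrophages are found in fat tissue, atherosclerotic plaques, injured brain and tumours, where they take up lipid and cell debris. The surface receptor TREM2 binds lipids and lipoproteins and signals through the adaptor TYROBP. Cells in this state express genes for lipid hydrolysis, transport, storage and export, together with lysosomal and secreted proteins. Several of these genes are not specific to macrophages: osteoblasts and osteoclasts also make Spp1, and adipocytes make Lpl and Plin2. In RNA from a whole culture, fewer cells of a type and less RNA per cell cannot be told apart.

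The cultures are labelled mesenchymal, but macrophage transcripts were abundant in every library. The 12 macrophage markers summed to 2.30% and 2.21% of all counts in MLL-AF9 Id1-/- cultures, against 2.57% and 2.38% in Id1+/+. In AE9a they summed to 2.82% in Id1-/- and 3.23% in Id1+/+. The 12 mesenchymal markers summed to 0.335% and 0.362% in MLL-AF9 Id1-/- cultures, against 0.0647% and 0.0729% in Id1+/+, and to 0.121% in AE9a Id1-/-, against 0.0272% in Id1+/+. Col1a1 and Col1a2 supplied most of these counts, so the sum mainly follows the collagen genes. By the test used below, 8 of the 12 were called higher in MLL-AF9 (17.2% of all genes tested) and 1, Cxcl12, lower. Cxcl12 had 629 and 602 counts in Id1-/-, against 1735 and 1590 in Id1+/+. In AE9a it was also lower, with 378 counts in Id1-/- and 1346 in Id1+/+. Library totals ran from 17864812 to 22510346 counts. Id1 itself had 226 and 222 counts in MLL-AF9 Id1-/- libraries, against 706 and 632 in Id1+/+, and 83 counts in AE9a Id1-/-, against 383 in Id1+/+. In AE9a the other deposited column of each genotype equals the one used plus a constant in all 10 genes (17 for Id1-/-, 134 for Id1+/+), so AE9a values are single measurements.

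In mm10 with GENCODE M21 the genes are Gpnmb (ENSMUSG00000029816.10) at 49036546 to 49070929 on chromosome 6, plus strand; Spp1 (ENSMUSG00000029304.14) at 104435118 to 104441050 on chromosome 5, plus strand; Trem2 (ENSMUSG00000023992.14) at 48346401 to 48354147 on chromosome 17, plus strand; Fabp5 (ENSMUSG00000027533.10) at 10012548 to 10016607 on chromosome 3, plus strand; and Lpl (ENSMUSG00000015568.16) at 68880491 to 68907448 on chromosome 8, plus strand. The others are Cd9 (ENSMUSG00000030342.8) at 125460266 to 125494791 on chromosome 6, minus strand; Cd63 (ENSMUSG00000025351.14) at 128900989 to 128912822 on chromosome 10, plus strand; Apoe (ENSMUSG00000002985.16) at 19696109 to 19699188 on chromosome 7, minus strand; Lgals3 (ENSMUSG00000050335.17) at 47367751 to 47386160 on chromosome 14, plus strand; and Plin2 (ENSMUSG00000028494.12) at 86648386 to 86670060 on chromosome 4, minus strand. The regulatory sequence upstream of 5 of them is shown because basic helix-loop-helix factors, the partners that ID1 blocks, bind the E-box CANNTG. Each run is the 250 bases before the transcription start, from RefSeq on GRCm38.p6 (mm10), 5′ to 3′ on the gene's strand, with every CANNTG match in capitals. Spp1, Cd9 and Gpnmb are shown as examples, since all 10 genes were lower in Id1-/- cultures of both models. Trem2 is the receptor of the program, and Apoe was the gene with the smallest difference in either model. The windows of Lgals3 and Plin2, not shown, also hold a CANNTG.
Spp1 chr5:104434861-104435110 plus strand: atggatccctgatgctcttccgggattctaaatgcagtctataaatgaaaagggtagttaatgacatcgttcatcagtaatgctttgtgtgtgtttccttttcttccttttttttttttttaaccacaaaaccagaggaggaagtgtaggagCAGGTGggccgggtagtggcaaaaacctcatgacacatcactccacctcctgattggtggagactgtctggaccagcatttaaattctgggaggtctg
Cd9 chr6:125494761-125495010 minus strand: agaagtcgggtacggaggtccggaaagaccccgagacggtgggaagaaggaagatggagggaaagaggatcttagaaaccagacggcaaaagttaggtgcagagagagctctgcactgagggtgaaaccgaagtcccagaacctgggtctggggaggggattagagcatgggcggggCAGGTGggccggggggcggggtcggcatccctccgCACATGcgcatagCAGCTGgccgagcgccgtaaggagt
Gpnmb chr6:49036268-49036517 plus strand: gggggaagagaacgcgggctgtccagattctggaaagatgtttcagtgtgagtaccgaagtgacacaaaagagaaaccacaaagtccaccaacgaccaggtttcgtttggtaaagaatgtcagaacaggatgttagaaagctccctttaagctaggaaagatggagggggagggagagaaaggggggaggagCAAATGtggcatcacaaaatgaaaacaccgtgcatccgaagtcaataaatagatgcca
Trem2 chr17:48346151-48346400 plus strand: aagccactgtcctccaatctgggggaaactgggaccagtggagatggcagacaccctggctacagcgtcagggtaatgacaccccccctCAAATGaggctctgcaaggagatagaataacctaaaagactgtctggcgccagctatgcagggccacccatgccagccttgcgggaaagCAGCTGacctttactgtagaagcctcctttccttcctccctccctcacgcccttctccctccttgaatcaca
Apoe chr7:19699189-19699438 minus strand: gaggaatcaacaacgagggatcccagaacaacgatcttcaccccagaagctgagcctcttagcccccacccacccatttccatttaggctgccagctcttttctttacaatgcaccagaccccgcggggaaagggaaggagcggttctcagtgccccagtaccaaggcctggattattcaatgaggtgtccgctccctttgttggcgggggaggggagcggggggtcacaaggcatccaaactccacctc
Cd9 has 3 matches, with CAGGTG at 73 bases, CACATG at 38 bases and CAGCTG at 25 bases before the start. The Cd9 window reaches down to 125494761, while the GENCODE gene extends up to 125494791. The end of this window, with the CAGCTG, thus lies inside the GENCODE gene, and the RefSeq and GENCODE starts differ. Trem2 has CAAATG at 161 bases and CAGCTG at 72 bases before the start. Spp1 has CAGGTG at 98 bases, Gpnmb has CAAATG at 58 bases, and the Apoe window shown has none. What is seen depends on the start chosen: another Apoe window has CAGGTG at 212 bases, and a further Spp1 window has CATTTG at 218 bases and CAAATG at 207 bases before its start. RefSeq windows matched 8 of the 10 genes, with 11 windows in all because Spp1 and Apoe have several starts. Of these 11 windows 8 hold a CANNTG, against 66.2% of the 32851 windows of all genes, so the motif is about as common here as elsewhere. CACGTG, an E-box variant bound by MITF and TFE factors, was in 0 of the 11 windows and in 6.02% of all windows. CATGTG or its reverse complement CACATG was in 1 of 11, that of Cd9, and in 12.3% of all windows. Both strands were searched, and every match to either variant is also a match to CANNTG. A match describes letters in these windows and does not show binding.

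All 10 genes were lower in Id1-/- than in Id1+/+ cultures in the MLL-AF9 libraries, and for 8 of them the difference passed the test. In TMM-scaled CPM, counts relative to the scaled library total, both Id1-/- libraries lay below both Id1+/+ libraries for every one of the 10, which was so for 31.5% of all genes. The 8 genes called lower were Spp1, Cd9, Lgals3, Plin2, Gpnmb, Fabp5, Trem2 and Cd63, and 0 were called higher. Of all 14137 genes tested 27.8% were called, 10.6% lower and 17.2% higher (edgeR quasi-likelihood F test, Benjamini-Hochberg (BH) adjusted p under 0.05). Abundance matters for this reading: of the 185 genes at least as abundant as Cd9, the least abundant of the 10, 48.6% were called lower and 7.57% higher. The median log2 fold change was -0.44 for the 10 genes, -0.22 for those 185 abundant genes and 0.00 for all genes tested.

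**Figure D1:**
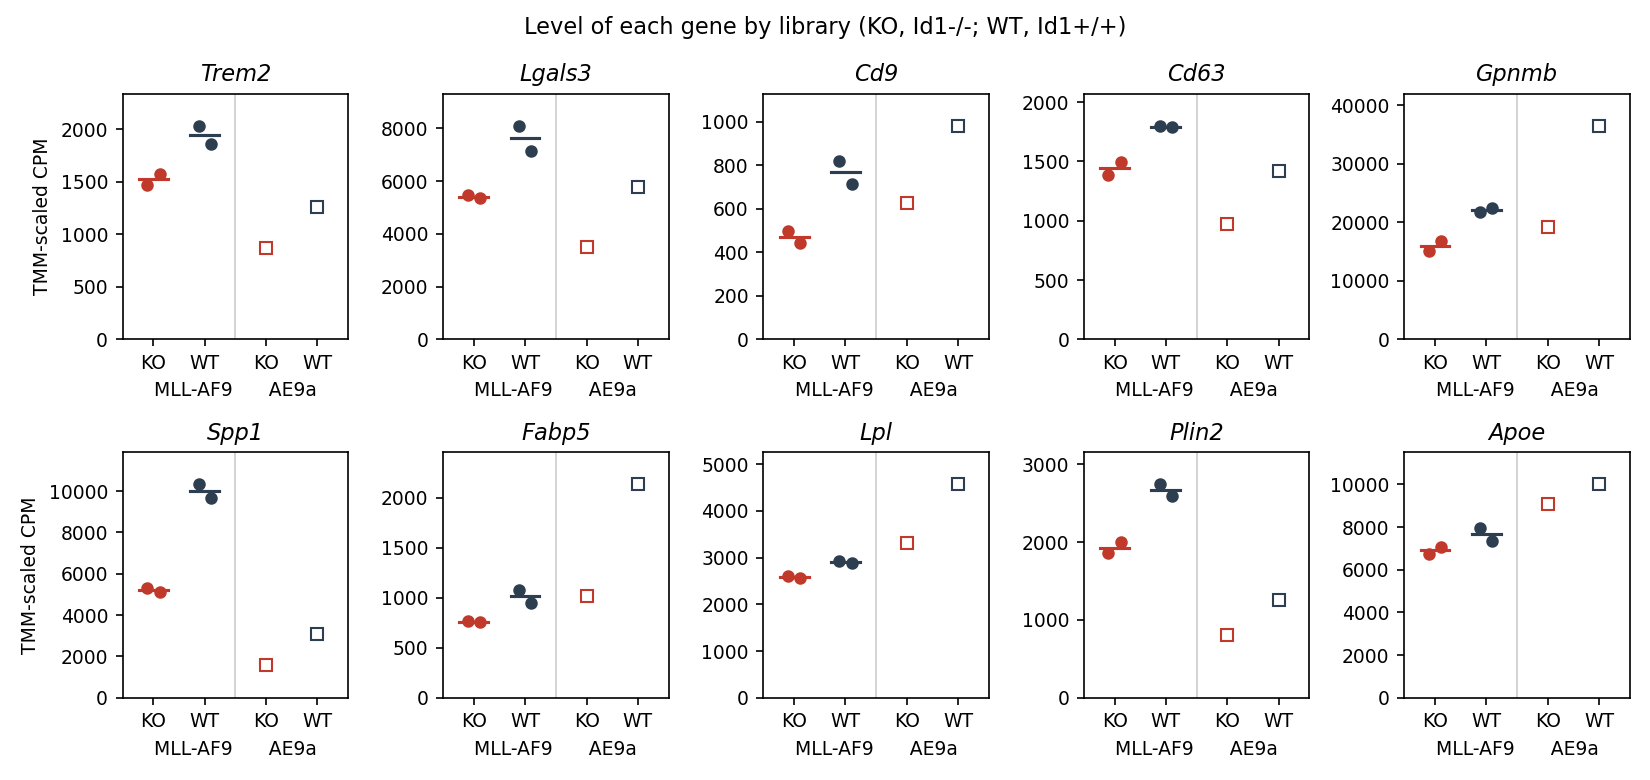
TMM-scaled CPM (vertical axes, each from 0) of the 10 genes in each library, Id1-/- (KO, red) left of Id1+/+ (WT, dark) within each leukaemia model. Filled circles are the 2 MLL-AF9 libraries of a genotype with their mean as a bar, and open squares the 1 AE9a library; in every panel the Id1-/- points lie below the Id1+/+ points of the same model.

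Among the surface and lectin genes, Trem2 had 1471 and 1577 CPM in MLL-AF9 Id1-/- cultures, against 2037 and 1859.7 CPM in Id1+/+. The gap is narrow, since the higher Id1-/- library reached 84.8% of the lower Id1+/+ library. The log2 fold change was -0.35 (SE 0.08, edgeR adjusted p = 0.00422), and without Id1-/- replicate 1 it was -0.31 and no longer called (adjusted p = 0.0768). Tyrobp, the adaptor through which TREM2 signals, was at 1379 ± 2.86 CPM in Id1-/- and 1785 ± 93.8 CPM in Id1+/+ (SD, n = 2 libraries each), a log2 fold of -0.37 (edgeR adjusted p = 0.00219), and was not called on the macrophage marker scale used further on (adjusted p = 0.178). Lgals3 encodes galectin-3, a lectin that binds galactose-containing sugars and damaged lysosomes. It had 5459.9 and 5359 CPM in Id1-/-, against 8109 and 7162 CPM in Id1+/+, with a log2 fold of -0.50 (SE 0.08, edgeR adjusted p = 0.000326). Its smaller relative Lgals1 (galectin-1) had a log2 fold of 0.06 (adjusted p = 0.67), and was called higher with macrophage marker scaling (0.30, adjusted p = 0.015).

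The tetraspanins Cd9 and Cd63 organise other membrane proteins, Cd9 mainly at the cell surface and Cd63 in late endosomes and lysosomes. Cd9 had 497 and 444 CPM in MLL-AF9 Id1-/- cultures, against 818 and 717 CPM in Id1+/+. The log2 fold was -0.70 (SE 0.09, edgeR adjusted p = 1.98e-05), the lowest of the 10 after Spp1. Cd63 had 1387 and 1499 CPM in Id1-/-, against 1803 and 1787 CPM in Id1+/+, a log2 fold of -0.31 (SE 0.08, edgeR adjusted p = 0.0071). Without Id1-/- replicate 1 the Cd63 difference was -0.26 and no longer called (adjusted p = 0.116). Cd63 shares sequence with its processed pseudogene Cd63-ps, which carried 2450 and 2568 counts in Id1-/- and 3332 and 3583 in Id1+/+, so the split of reads between them is uncertain. Cd81, a tetraspanin close to Cd9, was at 102 ± 2.72 CPM in Id1-/- and 89.0 ± 7.62 CPM in Id1+/+ and was not called (adjusted p = 0.093), and neither was Cd82 (log2 fold -0.09, adjusted p = 0.486). Cd81 was called higher with library totals (0.31, adjusted p = 0.0138) and with macrophage marker scaling (0.45, adjusted p = 0.00531; 0.44, adjusted p = 0.00126 without Lyz2). On the opposite strand, exons of Gm26728 cover 10.7% of the merged exons of Cd9, and the strand setting of the counting is not given in the sources used here.

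Gpnmb encodes a glycoprotein of lysosomes and the cell surface and was among the 3 genes with the most counts in each MLL-AF9 library. It had 15125 and 16867 CPM in Id1-/- cultures, against 21760.1 and 22478 CPM in Id1+/+. The higher Id1-/- library stood at 77.5% of the lower Id1+/+ library, and the log2 fold was -0.47 (SE 0.08, edgeR adjusted p = 0.000496). Mitf, whose protein drives Gpnmb in melanocytes and osteoclasts, was at 70.4 ± 1.39 CPM in Id1-/- and 71.8 ± 2.84 CPM in Id1+/+ (log2 fold -0.03, edgeR adjusted p = 0.836). In AE9a, with 1 library per genotype, Mitf had a log2 ratio of -0.43.

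Spp1, osteopontin, is a secreted protein that binds integrins and CD44 and showed the lowest fold of the 10 genes in MLL-AF9. It had 5334 and 5140.3 CPM in Id1-/- cultures, against 10339 and 9658 CPM in Id1+/+. The groups are well apart, with the higher Id1-/- library at 55.2% of the lower Id1+/+ library. The log2 fold was -0.93 (SE 0.08, edgeR adjusted p = 3.04e-07), or 52.4% of the Id1+/+ level. Among its receptors, Cd44 had a log2 fold of -0.06 (adjusted p = 0.631) and the integrin chain Itgb3 -0.18 (adjusted p = 0.238), which without Id1-/- replicate 2 was -0.36 and called lower (adjusted p = 0.0494). Itgav, the chain paired with Itgb3, had 0.21 (adjusted p = 0.0488), and lost this call with DESeq2, with its size factors, with no filter and without any one library (adjusted p 0.0573 to 0.29). Exons of Gm42793 on the same strand cover 18.8% of the merged exons of Spp1. Of 4 osteoblast markers tested 3 rose (Alpl, Sp7 and Ibsp), as did 17.2% of all genes tested. Alpl was at 67.2 ± 0.416 CPM in Id1-/- and 14.6 ± 0.399 CPM in Id1+/+. The 8 osteoblast markers, of which Bglap2, Sp7, Runx2, Alpl and Ibsp had a row in the MLL-AF9 table, summed to 0.0142% and 0.0149% of counts in Id1-/-, against 0.00671% and 0.0065% in Id1+/+, and to 0.00362% in AE9a Id1-/-, against 0.00225% in Id1+/+. Their part in the Spp1 difference was not tested.

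Of the 4 genes of lipid handling, Plin2 and Fabp5 fell, while Lpl and Apoe were not called. Plin2 coats lipid droplets and had 1859 and 1995 CPM in MLL-AF9 Id1-/- cultures, against 2746 and 2592 CPM in Id1+/+. Its log2 fold was -0.47 (SE 0.08, edgeR adjusted p = 0.000377), while Plin3, a droplet protein of the same family, had -0.16 (adjusted p = 0.163). Fabp5 carries fatty acids inside the cell and had 765 and 755 CPM in Id1-/-, against 1083 and 951 CPM in Id1+/+, a log2 fold of -0.42 (SE 0.08, edgeR adjusted p = 0.00135). Fabp4, the carrier shared with adipocytes, was at 93.0 ± 0.227 CPM in Id1-/- and 103 ± 7.33 CPM in Id1+/+ (log2 fold -0.15, adjusted p = 0.2).

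Lpl, which splits the triglycerides of lipoproteins, had 2596 and 2556 CPM in Id1-/-, against 2926 and 2884 CPM in Id1+/+. Its log2 fold of -0.17 (SE 0.08) had an edgeR adjusted p of 0.101, and DESeq2 gave -0.18 with an adjusted p of 0.0491. Lmf1, needed for Lpl to fold, had a log2 fold of -0.04 (adjusted p = 0.829), and Angptl4, which inactivates the enzyme, 0.25 (adjusted p = 0.0517). Angptl4 was called higher with library totals (0.36, adjusted p = 0.00914) and with macrophage marker scaling (0.49, adjusted p = 0.00581; 0.49, adjusted p = 0.000942 without Lyz2). Apoe, the lipoprotein component through which macrophages release cholesterol, had 6726.5 and 7077 CPM in Id1-/-, against 7964 and 7358 CPM in Id1+/+. The higher Id1-/- library reached 96.2% of the lower Id1+/+ library, and the log2 fold was -0.15 (SE 0.08, edgeR adjusted p = 0.173). Missing the threshold does not show that Lpl and Apoe were equal between genotypes.

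In AE9a all 10 genes were again lower in the Id1-/- library than in the Id1+/+ library, and these differences have no replicate check. Being lower by any amount was usual among abundant genes, since 78.4% of the 111 AE9a genes at least as abundant as the least abundant of the 10 were lower in Id1-/-, against 48.7% of all 15494 genes. The median log2 ratio was -0.65 for the 10 genes, -0.49 for those 111 and 0.01 for all genes. Fabp5 alone passed a 2-fold difference, while 3% of all genes were at least 2-fold lower and 14.2% at least 2-fold higher (1.8% and 1.8% of the 111 abundant genes). Fabp5 had 1020.5 CPM in Id1-/-, against 2138 CPM in Id1+/+, a log2 ratio of -1.07 (-1.09 to -1.04, exact 95% binomial interval, counting error only). It was not past 2-fold with library totals (-0.87).

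Spp1 had 1567 CPM in AE9a Id1-/-, against 3085 CPM in Id1+/+ (log2 ratio -0.98), beside a log2 fold of -0.93 in MLL-AF9. Gpnmb had 19131 CPM in Id1-/-, against 36548 CPM in Id1+/+ (-0.93, interval -0.94 to -0.93), and was the gene with the most counts in the AE9a Id1+/+ library. Lgals3 had 3509 CPM in Id1-/-, against 5784 CPM in Id1+/+ (-0.72). Such intervals are narrow because the counts are high, and they say nothing of variation between cultures. Cd9 had 628 CPM in Id1-/-, against 983 CPM in Id1+/+ (-0.65), and Plin2 had 805 CPM in Id1-/-, against 1259.97 CPM in Id1+/+ (-0.65). Cd63 had 973 CPM in Id1-/-, against 1418 CPM in Id1+/+ (-0.54), and Trem2 had 869 CPM in Id1-/-, against 1257 CPM in Id1+/+ (-0.53). Tyrobp had a log2 ratio of -0.59. Several partners and relatives not called in MLL-AF9 were lower in AE9a Id1-/-: Fabp4 (-0.88), Plin3 (-0.64), Cd82 (-0.81), Itgb3 (-1.15), Mitf (-0.43) and Lmf1 (-0.08). Lgals1 (0.14), Cd81 (0.60), Cd44 (0.10), Angptl4 (0.87) and Itgav (0.65) were higher there. Lpl had 3302 CPM in Id1-/-, against 4571 CPM in Id1+/+ (-0.47). Apoe had 9065 CPM in Id1-/-, against 10014 CPM in Id1+/+ (-0.14), again nearest to 0.

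**Figure D2:**
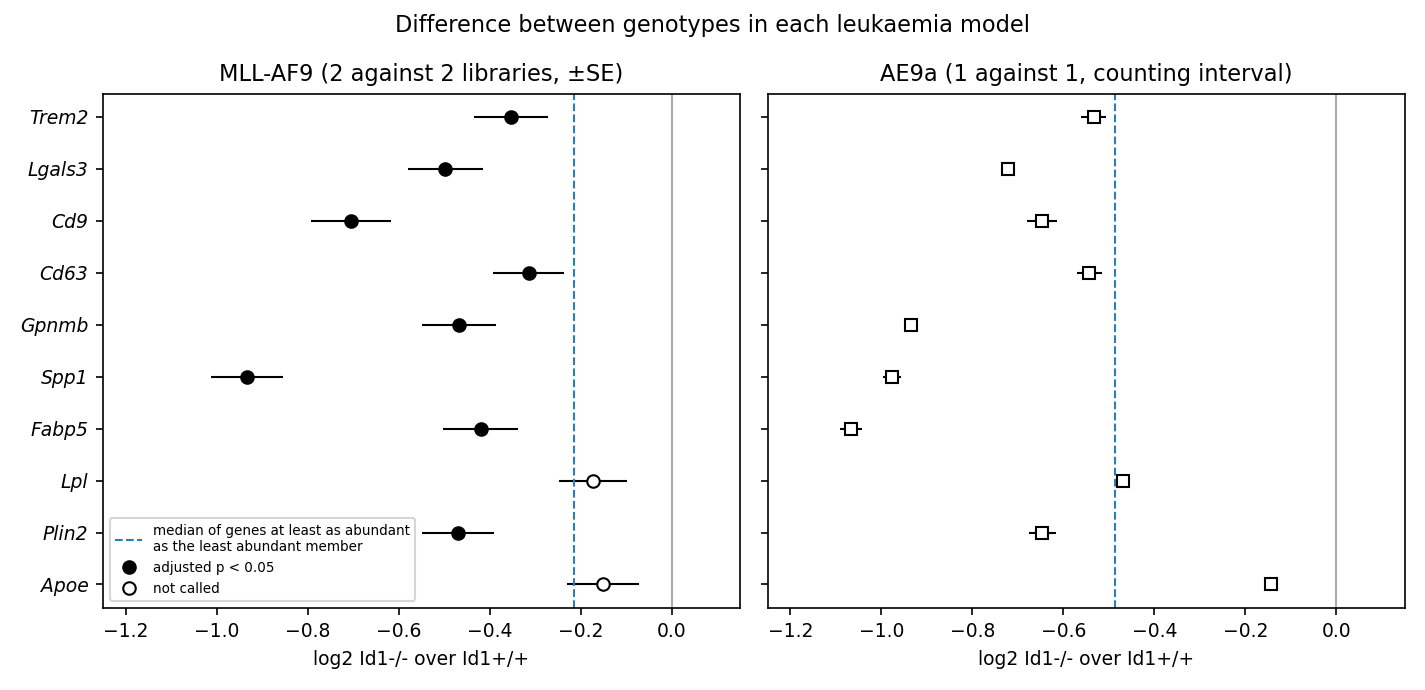
Log2 of Id1-/- over Id1+/+ (horizontal axis) for each gene, in MLL-AF9 (left, edgeR estimate ± SE, filled where adjusted p was under 0.05) and AE9a (right, 1 library against 1, with the exact 95% counting interval). The dashed line is the median of genes at least as abundant as the least abundant of the 10 (-0.22 and -0.49): Spp1 stands at -0.93 and -0.98 and Apoe at -0.15 and -0.14.

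Whether the genotype difference itself differed between the leukaemia models was tested in a joint fit of the 6 usable libraries; each single AE9a library was taken to vary as much as an MLL-AF9 one. The difference was larger in AE9a for Fabp5 (interaction log2 0.74, SE 0.14, edgeR adjusted p = 0.00479) and Gpnmb (0.56, SE 0.13, adjusted p = 0.0118), where a positive value means a smaller fall in MLL-AF9. Of all 15086 genes tested 10.3% were called, 6.57% in this direction and 3.71% in the other. Fabp5 was called under every alternative tried (adjusted p 0.00247 to 0.0405). Gpnmb was not called without Id1-/- replicate 2 (0.48, adjusted p = 0.118), without Id1+/+ replicate 1 (0.49, adjusted p = 0.0682), with library totals (0.35, adjusted p = 0.0692) or with either scaling on macrophage markers (0.32, adjusted p = 0.133; 0.35, adjusted p = 0.0679 without Lyz2). The other 8 genes were not called, with interaction estimates from 0.03 for Cd9 to 0.39 for Lpl (adjusted p = 0.0644). The median over all genes in this fit was 0.09, and it was -0.12 with library totals and -0.15 with scaling on macrophage markers. A share of calls among abundant genes was not computed for this fit. In the separate analyses the abundant genes had a median of -0.22 in MLL-AF9 (185 genes) and -0.49 in AE9a (111 genes). The median of abundant genes was thus also lower in AE9a. Each set was cut at the level of its own table and includes the 10 genes, so the medians are not of the same genes.

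The 10 transcripts together made up 4.30% and 4.47% of all counts in MLL-AF9 Id1-/- cultures, against 5.66% and 5.59% in Id1+/+, and 4.37% in AE9a Id1-/-, against 6.26% in Id1+/+. Their makeup can be read without any scaling of the libraries. In MLL-AF9, Spp1 gave 12.9% and 11.9% of the counts of the 10 genes in Id1-/-, against 17.4% and 16.8% in Id1+/+. Apoe gave 16.3% and 16.4% in Id1-/-, against 13.4% and 12.8% in Id1+/+, and Lpl gave 6.30% and 5.91% in Id1-/-, against 4.91% and 5.02% in Id1+/+. For these genes the genotypes do not overlap, and neither do they for Trem2 and Cd63, which gained share in Id1-/-, and Cd9, which lost share. A share of the 10 has no counterpart over all genes, so no background stands beside this. In CPM, both Id1-/- libraries lay below both Id1+/+ libraries for 31.5% of all genes, so such separation is common with 2 libraries each. For Gpnmb the shares of the genotypes do overlap, with 36.7% and 39.0% in Id1-/-, against 36.5% and 39.1% in Id1+/+. They also overlap for Fabp5, Lgals3 and Plin2. Such shares depend on each other, so a gene gains share where others fall more. Apoe and Lpl gained share although their CPM was lower in Id1-/-. In AE9a, Gpnmb gave 46.8% in Id1-/-, against 54.5% in Id1+/+, and Apoe gave 22.2% in Id1-/-, against 14.9% in Id1+/+.

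**Figure D3:**
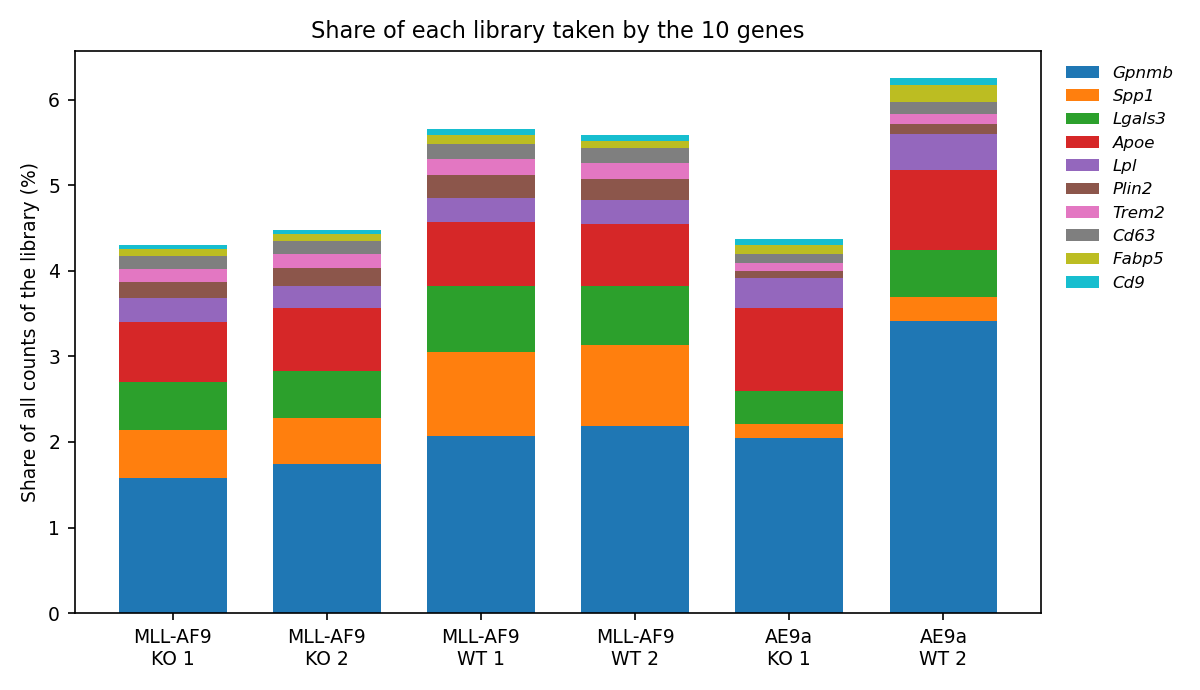
Share of all counts of each library (vertical axis, percent) taken by each of the 10 genes, stacked, with Id1-/- (KO) left of Id1+/+ (WT) within each leukaemia model. The stacks reach 4.30% and 4.47% in MLL-AF9 Id1-/-, 5.66% and 5.59% in MLL-AF9 Id1+/+, 4.37% in AE9a Id1-/- and 6.26% in AE9a Id1+/+.

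The genes were also ordered by CPM per kilobase of merged GENCODE M21 exons, a scale on which levels of different genes can be compared as far as those exons are the ones transcribed. In MLL-AF9 the same 4 genes led every library: Spp1 was at 3236 and 3119 CPM per kilobase in Id1-/-, against 6273 and 5860.4 in Id1+/+, and Apoe, Lgals3 and Gpnmb lay between 2322 and 3310.1 in Id1-/-, against 3341 to 4364 in Id1+/+. Spp1 was the highest of the 10 in both Id1+/+ libraries, while in Id1-/- Spp1 and Apoe (3146 and 3310.1) each led in 1 library. Plin2 followed, and the remaining 5 ran from 212 to 407 in Id1-/- and from 267 to 489.7 in Id1+/+. In AE9a the order was another one. Apoe led in Id1-/- with 4239.8 and Gpnmb was next with 2937, while in Id1+/+ Gpnmb led with 5611 and Apoe followed with 4684, and Spp1 came after Lgals3 in either (951 in Id1-/-, 1872 in Id1+/+). The tables of the models were scaled separately, so these levels are set side by side without a test. Merged exons count the sequence of all annotated transcripts, and for Lpl (10478 bases) and Gpnmb (6514 bases) a shorter transcript would raise the level.

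Since the sum of the macrophage markers was somewhat lower in Id1-/- cultures, the differences were recomputed with the libraries scaled to the summed counts of the 12 markers. Of these markers 5 were called lower in MLL-AF9 (Cd68, Itgam, Cd14, Adgre1 and Lyz2), 3 higher (Mrc1, Aif1 and Mertk) and 4 neither. Over all genes tested 10.6% were lower and 17.2% higher. In AE9a the median log2 ratio of the 12 was -0.10. There Cx3cr1 (0.69), Cd14 (0.60), Fcgr1 (0.45), Aif1 (0.17) and Mrc1 (0.06) were higher in Id1-/- and the others lower. In MLL-AF9 the lower count was 2 without Id1-/- replicate 1 or Id1+/+ replicate 1, and 1 without Id1-/- replicate 2, with library totals or on the macrophage scale. On this scale 5 of the 10 genes remained lower in MLL-AF9: Spp1 (log2 fold -0.69), Cd9 (-0.46), Lgals3 (-0.25), Gpnmb (-0.23) and Plin2 (-0.23). Fabp5 (-0.17, adjusted p = 0.0998), Trem2 (-0.11, adjusted p = 0.279) and Cd63 (-0.07, adjusted p = 0.519) were no longer called, and Lpl (0.07) and Apoe (0.09) changed sign without a call. Lyz2 supplied 58.6% to 61.8% of the marker counts in MLL-AF9 and 74.1% and 74.8% in AE9a, and with Lyz2 left out there were also 5. This scaling moves the median of all genes to 0.24 in MLL-AF9 and 0.39 in AE9a, and library totals move it to 0.11 in MLL-AF9 and 0.20 in AE9a, so the values on either scale read relative to those medians. In AE9a the 10 genes ran from -0.68 for Fabp5 to 0.25 for Apoe on the macrophage scale, with Spp1 at -0.59 and Gpnmb at -0.54.

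**Figure D4:**
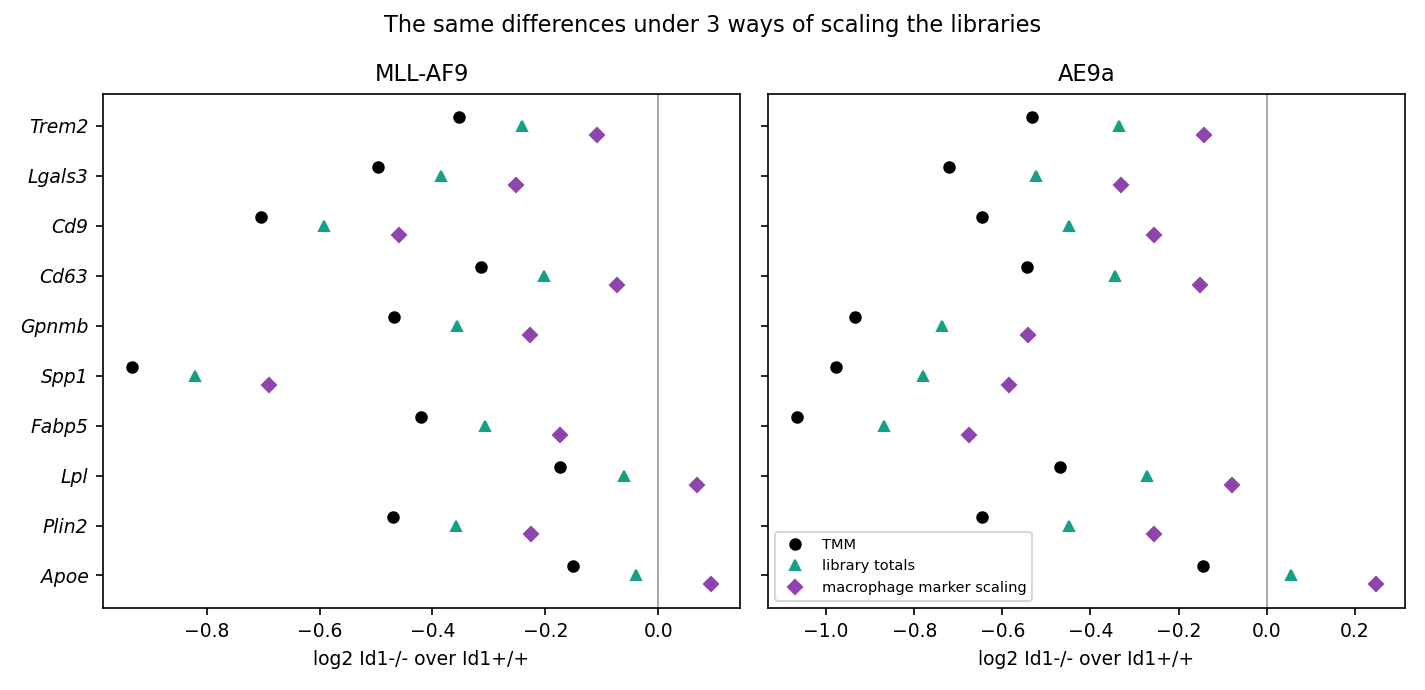
Log2 of Id1-/- over Id1+/+ (horizontal axis) for each gene under TMM scaling (circles), library totals (triangles) and scaling to 12 macrophage markers (diamonds), in MLL-AF9 (left) and AE9a (right). Spp1 moves from -0.93 to -0.69 in MLL-AF9 and Apoe from -0.14 to 0.25 in AE9a.

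Markers of other cell types were summed in the same libraries. The 8 adipocyte markers summed to at most 0.0017% of counts in any library, with Adipoq, which defines adipocytes, at 20 counts in AE9a Id1-/- and 0 in AE9a Id1+/+ and with no row in the MLL-AF9 table. The 9 osteoclast markers summed to 0.0321% and 0.0329% in MLL-AF9 Id1-/-, against 0.0321% and 0.0321% in Id1+/+, and to 0.11% in AE9a Id1-/-, against 0.149% in Id1+/+. Behind the near-equal sums in MLL-AF9, Mmp9 (0.63), Acp5 (0.62) and Ctsk (0.51) were called higher and Atp6v0d2 (-0.55) and Dcstamp (-0.86) lower. That is 3 and 2 of 7 tested, against 17.2% and 10.6% of all genes tested. Calcr was at 0 in both AE9a libraries. Neutrophil markers summed to 0.0335% and 0.0333% in MLL-AF9 Id1-/-, against 0.0524% and 0.0469% in Id1+/+, and to 0.0138% in AE9a Id1-/-, against 0.0176% in Id1+/+. In MLL-AF9 7 of 8 tested were called lower, against 10.6% of all genes tested. The AE9a sum is mostly Mmp8, with 2069 counts in Id1-/- and 3493 in Id1+/+. In AE9a 4 of 7 markers were at least 2-fold higher in Id1-/- and 0 at least 2-fold lower (median log2 ratio 1.64). Of all AE9a genes 14.2% and 3% were so. These 4 had few counts, with Mpo at 97 in Id1-/- and 30 in Id1+/+, Ngp at 47 and 8, S100a9 at 96 and 7, and Ltf at 34 and 4. S100a8 was lower, with 117 counts in Id1-/- and 137 in Id1+/+. The 7 dendritic cell markers stayed at or under 0.000772% in every library. The part of these cells, and of the mesenchymal cells whose markers were given above, in the differences of the 10 genes was not tested.

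The pathways of the 10 genes were followed in 7 lists, each without the 10 themselves. The listed genes were also measured in whole cultures, where the mesenchymal marker sum, mostly Col1a1 and Col1a2, took a larger share in Id1-/-. Which cell type gave a listed difference was not tested. Of the lysosomal genes of lipid and protein breakdown 17 of 20 fell and 0 rose in MLL-AF9, where 10.6% of all genes tested and 48.6% of the 185 abundant genes were called lower. The median log2 fold was -0.32, against -0.22 for the abundant genes and 0.00 for all genes tested, and many of these lysosomal genes are themselves abundant. The protease Ctsl was at 2675 ± 92.6 CPM in Id1-/- and 4291 ± 356 CPM in Id1+/+ (log2 -0.68, edgeR adjusted p = 1.5e-05). Gla, which removes galactose from glycolipids, had a log2 fold of -0.49 and the protease Ctsd -0.48. Without Id1-/- replicate 1 the count was 9, without Id1-/- replicate 2 it was 11, and on the macrophage scale 4 (8 without Lyz2). In AE9a the median of this list was -0.60, against -0.49 for the 111 abundant genes.

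Genes of TREM2 signalling and activation went both ways, with 5 of 20 lower and 3 higher (median -0.06). Of all genes tested 10.6% were lower and 17.2% higher. Ccl6, a chemokine, and Itgax (CD11c) were lower with Tyrobp, at -0.49 and -0.32. Csf1, the growth factor that macrophages need, was at 412 ± 21.5 CPM in Id1-/- and 254 ± 6.58 CPM in Id1+/+ (log2 0.70, edgeR adjusted p = 5.98e-06), and the phagocytosis receptors Axl (0.58) and Mertk (0.26) were also higher. Itgax lost its call without Id1-/- replicate 1 or Id1+/+ replicate 2, and Mertk without either Id1-/- library or Id1+/+ replicate 1. The lower count was 2 without Id1-/- replicate 1, 3 without Id1-/- replicate 2 or Id1+/+ replicate 2, 2 with library totals and 0 on the macrophage scale. Syk, the kinase after TYROBP, had -0.02 in MLL-AF9 and was not called (adjusted p = 0.907). In AE9a Csf1 and Axl each had a log2 ratio of 2.03, Itgax had -0.65 and Syk -0.55, whereas Ccl6 (0.86) and Mertk (-0.29) had the opposite sign to MLL-AF9. The interaction was called for Ccl6 (edgeR adjusted p = 6.3e-05), Mertk (adjusted p = 0.0114), Csf1 (adjusted p = 7.03e-05), Axl (adjusted p = 4.13e-05) and Syk (adjusted p = 0.0171), and not for Tyrobp (adjusted p = 0.161) or Itgax (adjusted p = 0.0881).

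Among receptors and helpers of lipid uptake, 4 of 13 were higher and 2 lower in MLL-AF9 (median 0.06). The shares of all genes tested were 17.2% higher and 10.6% lower. The lipoprotein receptor Vldlr was at 13.1 ± 0.188 CPM in Id1-/- and 2.70 ± 0.9 CPM in Id1+/+ (log2 2.27, edgeR adjusted p = 6.07e-07). The heparan sulfate carrier Sdc1 (0.51) and Lrp1 (0.71), a large endocytic receptor for APOE, were higher. Slc27a1, a fatty acid transporter, was at -0.42 and the scavenger receptor Msr1 at -0.27. Neither was called without Id1-/- replicate 1, Msr1 also not without Id1-/- replicate 2 or Id1+/+ replicate 1, and the lower count was 1 with library totals and 0 on the macrophage scale. In AE9a Lrp1 and Sdc1 were lower in Id1-/- (-0.43 and -0.63), whereas Vldlr was higher (1.61).

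In the list of lipid carriers and droplet proteins, 5 of 15 were lower and 2 higher (median -0.19). All genes tested had 10.6% lower and 17.2% higher. Hilpda, a droplet protein that inhibits lipolysis, was at 38.4 ± 1.05 CPM in Id1-/- and 62.4 ± 6.82 CPM in Id1+/+ (log2 -0.70, edgeR adjusted p = 6.16e-05). The lipolysis genes Abhd5 (-0.48) and Pnpla2 (-0.31) were lower, and Plin4 (1.30) and the triglyceride synthase Dgat2 (0.75) higher. The lower count was 2 without either Id1-/- library or with library totals and 1 on the macrophage scale. Pnpla2 lost its call without either Id1-/- library, and Dgat2 without either, without Id1+/+ replicate 1 and with DESeq2, in each of which the higher count was 1.

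Cholesterol efflux genes and apolipoproteins had 3 of 9 higher and 1 lower in MLL-AF9 (median 0.08), and their median in AE9a was -0.42. Beside these counts, 17.2% of all genes tested in MLL-AF9 were higher and 10.6% lower. The cholesterol exporter Abca1 was at 72.2 ± 4.37 CPM in Id1-/- and 31.1 ± 6.05 CPM in Id1+/+ (log2 1.21, edgeR adjusted p = 1.03e-06). It loads lipid onto APOE, whose gene was at -0.15 and not called. Pltp (0.47) and Abcg1 (0.23) were also higher and the liver X receptor Nr1h2 lower (-0.30). Abcg1 had the opposite sign in AE9a (-0.77), while Abca1 (0.32), Pltp (0.22) and Nr1h2 (-0.34) kept theirs. In MLL-AF9 Apoc1, the neighbour of Apoe, was not called (-0.20, edgeR adjusted p = 0.742). Pltp and Abcg1 were not called, and 1 gene was higher, with DESeq2 or without either Id1-/- library or Id1+/+ replicate 1, and Abcg1 also not without Id1+/+ replicate 2, with no filter or with DESeq2 size factors. The lower count was 0 without Id1-/- replicate 1 or Id1+/+ replicate 1, with library totals and on the macrophage scale.

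Of 15 transcription regulators 3 were lower and 2 higher in MLL-AF9 (median -0.13), beside 10.6% and 17.2% of all genes tested. Tfec, a relative of Mitf in macrophages, was at 14.6 ± 0.681 CPM in Id1-/- and 20.6 ± 0.434 CPM in Id1+/+ (log2 -0.49, edgeR adjusted p = 0.00574). Bhlhe41, a basic helix-loop-helix repressor, was at -0.24, not called without either Id1-/- library, Id1+/+ replicate 2 or with library totals, and at 0.00 on the macrophage scale. The nuclear receptors Ppard (0.35) and Rxra (0.23) were higher. The higher count was 0 with DESeq2 or without Id1-/- replicate 2 or either Id1+/+ library, and 1 without Id1-/- replicate 1, with no filter or with DESeq2 size factors. The lower count was 1 without Id1-/- replicate 1 or with library totals and 0 on the macrophage scale. Pparg, the regulator of lipid uptake and storage, had -0.20 in MLL-AF9 (edgeR adjusted p = 0.125). In AE9a the median of the regulators was -0.36. Ppard (-0.35) and Rxra (-0.48) there had the opposite sign to MLL-AF9, while Tfec (-0.02), Bhlhe41 (-0.79) and Pparg (-0.36) kept theirs.

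Partners and relatives of osteopontin, the galectins and the tetraspanins had 5 of 20 lower and 4 higher (median 0.00). Over all genes tested 10.6% were lower and 17.2% higher. The leukocyte tetraspanins Cd37 (-0.73) and Cd53 (-0.57) were lower, Cd37 at 142 ± 15.9 CPM in Id1-/- and 236 ± 10.7 CPM in Id1+/+ (edgeR adjusted p = 1.39e-05), and Lgals9 was at -0.41. Itga4, an integrin chain that binds osteopontin, had 127 and 65.8 CPM in Id1-/-, against 37.2 and 42.2 CPM in Id1+/+ (log2 1.28), and 0.72 without Id1-/- replicate 1. Itga9, another such chain, was at 1.08, and Ptgfrn, which binds CD9, at 0.32, not called without Id1-/- replicate 2 or Id1+/+ replicate 1. The lower count was 3 without Id1-/- replicate 1 or Id1+/+ replicate 1, 3 with library totals and 2 on the macrophage scale. The higher count was 2 without Id1-/- replicate 2 or Id1+/+ replicate 1, 8 with library totals and 10 on the macrophage scale. On the macrophage scale without Lyz2 the higher count was 6 for TREM2 signalling, 7 for lipid uptake, 5 for cholesterol efflux, 5 for the regulators and 10 for the partners. Of all 14137 genes tested 5104 were higher on that scale, where the median of all genes was 0.24. Library totals gave 3138 of all genes higher and the macrophage scale 4000, against 2434 with TMM. The higher counts on these scales therefore read relative to a shift of the whole library. In AE9a the median of the partners was -0.10. Lgals9 (0.35) and Ptgfrn (-0.53) there had the opposite sign to MLL-AF9, while Cd37 (-0.78), Cd53 (-0.48), Itga4 (0.37) and Itga9 (0.87) kept theirs.

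**Figure D5:**
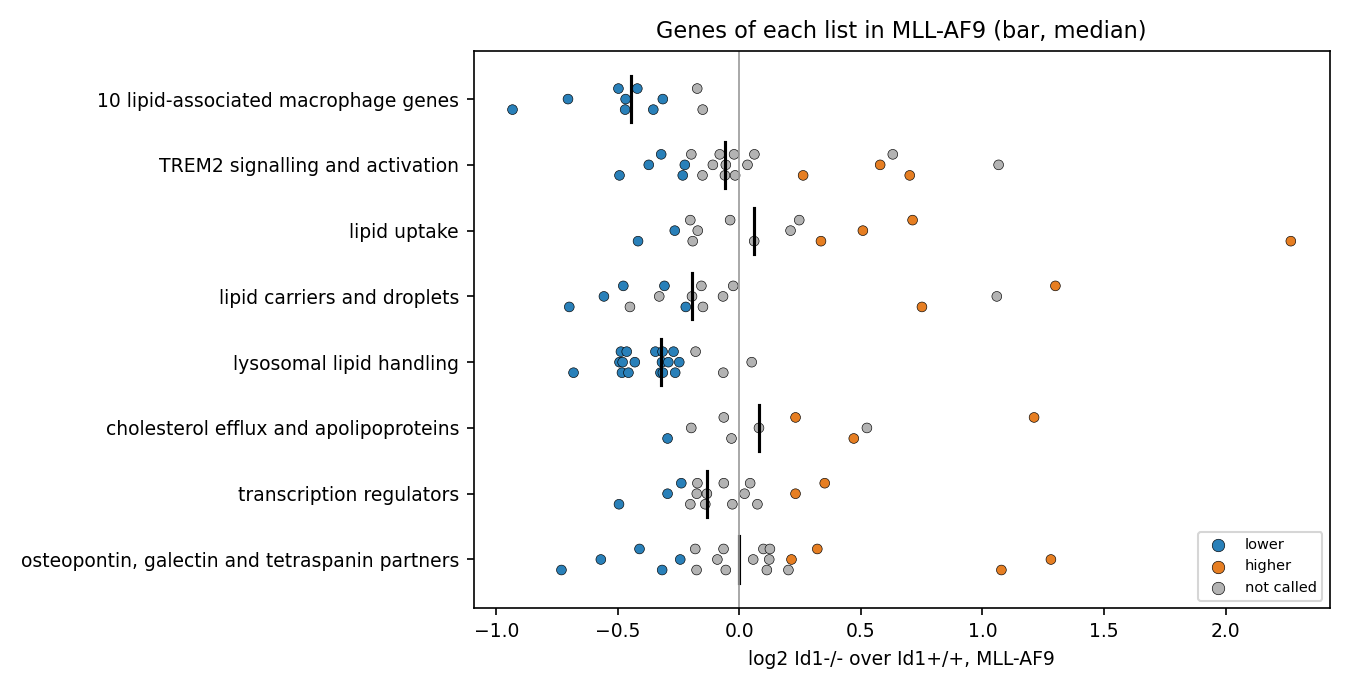
Log2 of Id1-/- over Id1+/+ in MLL-AF9 (horizontal axis) for the 10 genes (top row) and the genes of 7 related lists, each point 1 gene, coloured by call, with the median as a bar. The medians are -0.44 for the 10 genes, -0.32 for the lysosomal list and between -0.19 and 0.08 for the others.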

How the data were processed

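The 8 BMSC samples were sequenced as TruSeq libraries of TRIzol RNA on an Illumina NovaSeq, per the labels' protocols. HISAT2 2.2.1 with mm10, fastp 0.22.0, DESeq2 1.32.0 and featureCounts 2.0.1 appear, without their roles, per the submitters' processing notes. Strand setting and annotation release are not given in the sources used here. The authors deposited unnormalized counts per gene name in 1 table per leukaemia model. Of the names, 15706 of 15994 (MLL-AF9) and 53656 of 55421 (AE9a) matched GENCODE M21, used for lengths and overlaps.

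In AE9a, adding 134 to Id1+/+ replicate 2 gives replicate 1 exactly in 17957 of 17958 genes with 2 or more counts, and adding 17 to Id1-/- replicate 1 gives replicate 2 in 14187 of 14187 genes with 10 or more. These 2 deposited columns are other values than counts and were not used. AE9a was thus 1 library per genotype, with no test, where its log2 ratio used TMM scaling, a prior count of 2 and genes with at least 10 counts.

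MLL-AF9 libraries (2 per genotype) were filtered with filterByExpr, TMM-scaled and tested two-sided with edgeR 4.0.16 quasi-likelihood F tests in R 4.3.3, with BH adjustment over 14137 genes and a threshold of 0.05. The SE is the fold change divided by the root of F. The planned comparison of protein sequences was not run. Interaction was tested over the 15086 genes kept from 15849 shared names. The labels number replicates without naming animals, so p-values measure the spread between these libraries, which may be technical. Intervals cover counting error only. The fits were tested on simulated data.

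The 10 genes and all lists were chosen with earlier results of these data known. Text names were limited by rule to the 10 genes, listed partners of each (not all are reported here) and, per list, up to 3 genes called in each direction by adjusted p. Syk, Pparg, Alpl, Adipoq and Calcr and the macrophage, osteoblast, osteoclast, neutrophil and dendritic cell markers were named for what they mark or do, after their values were seen. Alternatives were DESeq2 1.42.0, limma-voom (limma 3.58.1), other scalings, no filter, a replicate block and leaving out each library.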

Additional observations from a re-analysis of the deposited data

Results flagged for a closer look

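The genotype difference of 2 of the 10 genes differed between the leukaemia models by the test of the interaction. For Fabp5 the MLL-AF9 effect minus the AE9a effect was 0.74 on the log2 scale (edgeR adjusted p = 0.00479), with folds of -0.42 in MLL-AF9 and -1.07 in AE9a. For Gpnmb it was 0.56 (adjusted p = 0.0118), with folds of -0.47 in MLL-AF9 and -0.93 in AE9a. Id1-/- was below Id1+/+ in 2 of 2 MLL-AF9 libraries and in the 1 AE9a library for either gene. The folds come from a separate analysis of each table and the interaction from the joint fit, so they do not add up exactly. Abundant genes, a set cut separately in each table, also had a lower median in AE9a (-0.49) than in MLL-AF9 (-0.22). The AE9a side rests on 1 library per genotype, and model, table and any difference in preparation cannot be told apart.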

How the results depend on the processing

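Counts in MLL-AF9 refer to 8 of the 10 genes lower, 0 higher, and 1502 lower and 2434 higher of all genes. With library totals 598 of all genes were lower. With scaling on macrophage markers 5 of the 10 genes were lower, and 166 of all genes were lower and 4000 higher. The same scaling without Lyz2, chosen after seeing the data, gave 5 of the 10, and 259 lower and 5104 higher of all genes. Leaving out 1 library at a time gave 6 to 8 of the 10 genes lower, and 621 to 1630 of all genes lower and 1555 to 2234 higher. DESeq2 called 9 of the 10 lower. With the replicate number as a block 10 of the 10 were lower, Angptl4 (adjusted p = 0.0182) and Cd81 (adjusted p = 0.0213) were called higher, and 2237 of all genes were lower and 2956 higher. The labels do not say what a shared number means. Same-numbered libraries deviated together weakly (Pearson correlation 0.20 across 8874 genes, which are not independent replicates).

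In AE9a, 1 of the 10 genes was past 2-fold lower, and 0 were with library totals or with macrophage marker scaling, with or without Lyz2. Apoe in AE9a turned from -0.14 to 0.054 with library totals, 0.25 with macrophage marker scaling and 0.21 without Lyz2. Bhlhe41 in MLL-AF9 turned from -0.24 to 0.0017 with macrophage marker scaling and 0.0021 without Lyz2. The interaction was called for 2 of the 10 genes, and for 1 with library totals or either macrophage scaling. Leaving out 1 library it was called for 1 to 2. The construction of these scalings moves all genes of a library by 1 factor. The cause was not tested otherwise. No AE9a library could be left out, since each genotype has 1.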
